A study of Saccharomyces cerevisiae with 95 samples.

Results

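The genes described here are 32 subunits of the 26S proteasome of budding yeast and RPN4 (YDL020C), the transcription factor that controls them. They were taken by their ORF names, 14 for the core particle, 18 for the regulatory particle and 1 for RPN4, which makes 33 of the 6132 ORFs measured. SEM1 (YDR363W-A), also of the regulatory particle, was not among the measured ORFs. All 33 members were found, each with a RefSeq symbol, and their values were read on all 95 two-color arrays of the series. Of these arrays 5 compared log-phase cultures, 7 followed adh1 cells after a transfer and 83 followed chemostat cultures in 10 courses.

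The proteasome degrades proteins that carry a chain of ubiquitin. Its core particle is a barrel of an outer alpha ring and an inner beta ring on either side, with the cutting sites inside, on PRE3, PUP1 and PRE2. The regulatory particle caps the barrel. Its base holds the ATPases RPT1 to RPT6, the scaffolds RPN1 and RPN2 and the ubiquitin receptors RPN10 and RPN13, and its lid holds RPN11, the enzyme that removes the ubiquitin chain, among other subunits. RPN4 activates the genes of nearly all subunits through a shared promoter element and is itself degraded by the proteasome, so that less degradation leaves more of the activator. Its own promoter is known to be a target of HSF1, YAP1, PDR1 and PDR3.

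The log-phase arrays held adh1 cells (BY4741 ADH1::KANMX, 3 arrays) and wild-type cells (BY4741, 2 arrays), each grown on glycerol (Cy5) against the same strain on glucose (Cy3). The transfer arrays held adh1 cells 0.5, 1, 2 and 4 h after a move to 2% glycerol or 0.5, 2 and 4 h after a move to fresh glucose (Cy5), against the overnight culture (Cy3), with 1 array per time. Each chemostat array held the continuous culture (Cy5) against a late log-phase batch culture in the same limiting medium (Cy3). The histidine-limited cultures (2 mg/l where the labels give it) received DTT (6 mM), NaCl (0.31 M), clotrimazole (10 µM, in DMSO), histidine to 4 mg/l, or 37 °C in place of 30 °C for 5 h. The glucose-limited cultures (0.02%) received DTT (6 mM), NaCl (0.4 M), H2O2 (0.6 mM), glucose to 0.04%, or 39 °C in place of 30 °C for 5 h. The sample labels give BY4741 for every chemostat, whereas the methods of the study give W303-1 with a bar1 disruption for histidine limitation, so limitation and strain cannot be told apart. Some labels of the chemostat courses contradict their titles, by which the arrays were grouped and timed here. In the glucose-limited heat shock course the source names repeat the times of the DTT course. Under histidine limitation the source names of the heat shock steady states give glucose limitation, and those of the clotrimazole steady states give NaCl as the perturbation. The growth text of the histidine-limited NaCl course gives a level of 0.02%. Nothing in the labels says that the courses or log-phase arrays were separate cultures, so the p-values measure the spread between these arrays, which may be partly technical.

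Values are the deposited log2 ratios, in which 1 stands for a 2-fold difference. Of the members RPT5 lacked a value on 3 glycerol transfer arrays, and no other value was missing. SCL1 was listed at exactly 0 on the steady-state array of the glucose-limited NaCl course, as was RPN4 at 22.12 h in the histidine course. The array medians over all ORFs lay between -0.03 and 0.03, and a shift shared by all transcripts is not visible in such ratios. For the histidine-limited DTT course no steady-state array was used, and its baseline was the mean steady state of the other histidine-limited courses. In the 3 courses with 2 steady-state arrays, the repeat arrays differed by 0.05 to 0.08 in the mean over the subunits, by 0.02 to 0.38 in RPN4 and by up to 0.56 in a single subunit (PRE9).

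Mating transcripts differed between the channels of the log-phase arrays. The alpha-specific ones did so far more on the adh1 arrays than on the wild-type arrays. The alpha-specific mating transcripts SAG1 and STE3 lay at -5.26, -5.44 and -4.93 and at -3.56, -3.46 and -3.45 on the adh1 arrays, against -0.26 and -0.23 and 0.23 and 0.34 on the wild-type arrays. The a-specific transcripts had negative values on the arrays of both strains. Among them STE2 lay at -2.63, -2.34 and -1.62 on the adh1 arrays and at -2.58 and -2.56 on the wild-type arrays. BAR1 lay at -0.93, -0.82 and -0.76 and at -1.72 and -1.47. All 7 mating transcripts tested were called lower on glycerol in adh1 cells, beside 34% of all ORFs. In wild-type cells 4 were called lower, beside 33% of all ORFs, and 1 higher, beside 27.7%. After the transfer to glycerol STE3 lay at -0.87 at 0.5 h and at -3.11 at 4 h, whereas in fresh glucose it stayed between -0.19 and 0.12. The methods give BY4741 as MATa. The part of these differences in the values of the proteasome genes was not tested. The ORF of ADH1 had log2 ratios of 5.60, 5.43 and 5.32 on the adh1 arrays, and as both channels hold the deletion strain by their labels and ADH1 resembles ADH2 closely in sequence, it does not check the deletion. Whether the channels held cells of the same strain and mating type was not tested, so the adh1 ratios of glycerol over glucose, and with them the difference from wild-type cells, cannot be told apart from a difference between the cells in the channels.

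On glycerol in log phase RPN4 was higher in both strains, whereas more subunits were lower than higher. RPN4 lay above 0 on all 5 arrays, and the mean over the subunits lay below 0 on all 5. In adh1 cells RPN4 lay at 0.94, 0.92 and 0.83, with a mean of 0.90 ± 0.06 (SD, n = 3, adjusted p = 0.00129). In wild-type cells it lay at 2.02 and 1.26, with a mean of 1.64 ± 0.53 (SD, n = 2, adjusted p = 0.000245). The strains did not overlap, and the adh1 response was smaller by 0.74 on the log2 scale (SE 0.22, adjusted p = 0.0469), although leaving out any one of adh1 replicates 1, 2 and 3 or wild-type replicate 1 ended this call. The values were then -0.76, -0.76, -0.71 and -0.36, with adjusted p of 0.104 to 0.125.

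The mean over the 32 subunits was -0.09, -0.13 and -0.23 on the adh1 arrays, which gave -0.15 ± 0.08 (SD, n = 3). On the wild-type arrays it was -0.36 and -0.32, which gave -0.34 ± 0.03 (SD, n = 2). In adh1 cells 11 subunits were lower on glycerol, against 34% of all ORFs called lower, and 2 were higher, against 29.1%. In wild-type cells 20 were lower, against 33% of all ORFs, and 3 higher, against 27.7%. The share of subunits called lower was thus close to that of all ORFs in adh1 cells (11 of 32) and above it in wild-type cells (20 of 32). Without wild-type replicate 1 the wild-type count was 12, and the medians over the subunits were -0.11 in adh1 and -0.39 in wild-type cells, beside -0.04 and -0.05 over all ORFs.

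Both particles held more lower than higher subunits, which was also so over all ORFs. In adh1 cells 4 core (28.6%) and 7 regulatory subunits (38.9%) were lower, beside 34% of all ORFs. In wild-type cells 9 core (64.3%) and 11 regulatory subunits (61.1%) were lower, beside 33% of all ORFs. The mean over the core minus that over the regulatory particle was -0.06 ± 0.01 in adh1 and -0.02 ± 0.02 in wild-type cells (SD, n = 3 and n = 2). Within the particles the values were uneven. In adh1 cells the beta ring averaged -0.30 and the alpha ring -0.07, the base -0.20 and the lid -0.03.

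PRE2 (YPR103W), the chymotrypsin-like catalytic subunit, and RPN13 (YLR421C), a ubiquitin receptor, had the lowest values in adh1 cells. PRE2 lay at -0.87, -1.06 and -1.15 on the adh1 arrays, a mean of -1.03 ± 0.14 (SD, n = 3, adjusted p = 8.05e-05), and at -0.98 and -0.97 on the wild-type arrays (adjusted p = 0.000251), so the strains overlapped. RPN13 lay at -0.82, -1.15 and -1.03 on the adh1 arrays (adjusted p = 0.000262) and at -1.30 and -1.69 on the wild-type arrays, where it was the lowest subunit (adjusted p = 0.000127). PUP1, the trypsin-like catalytic subunit, averaged -0.77 in adh1 and -0.82 in wild-type cells. Both catalytic subunits were thus lower on glycerol in both strains, while the third, PRE3, passed the threshold in neither.

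A small set of subunits went against the others. RPN12 (YFR052W), a lid subunit, lay at 0.37, 0.57 and 0.82 in adh1 cells, a mean of 0.59 ± 0.23 (SD, n = 3, adjusted p = 0.00801, and 0.0587 without adh1 replicate 3), and at 0.67 and 1.27 in wild-type cells (adjusted p = 0.00227). PRE8 (YML092C), an alpha ring subunit, lay at 0.25, 0.39 and 0.52 in adh1 cells (mean 0.38, adjusted p = 0.00998) and at 1.12 and 1.42 in wild-type cells (mean 1.27, adjusted p = 0.000147). PUP3, a beta ring subunit without a cutting site, was the other higher one in wild-type cells, with a mean of 0.29.

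**Figure D1:**
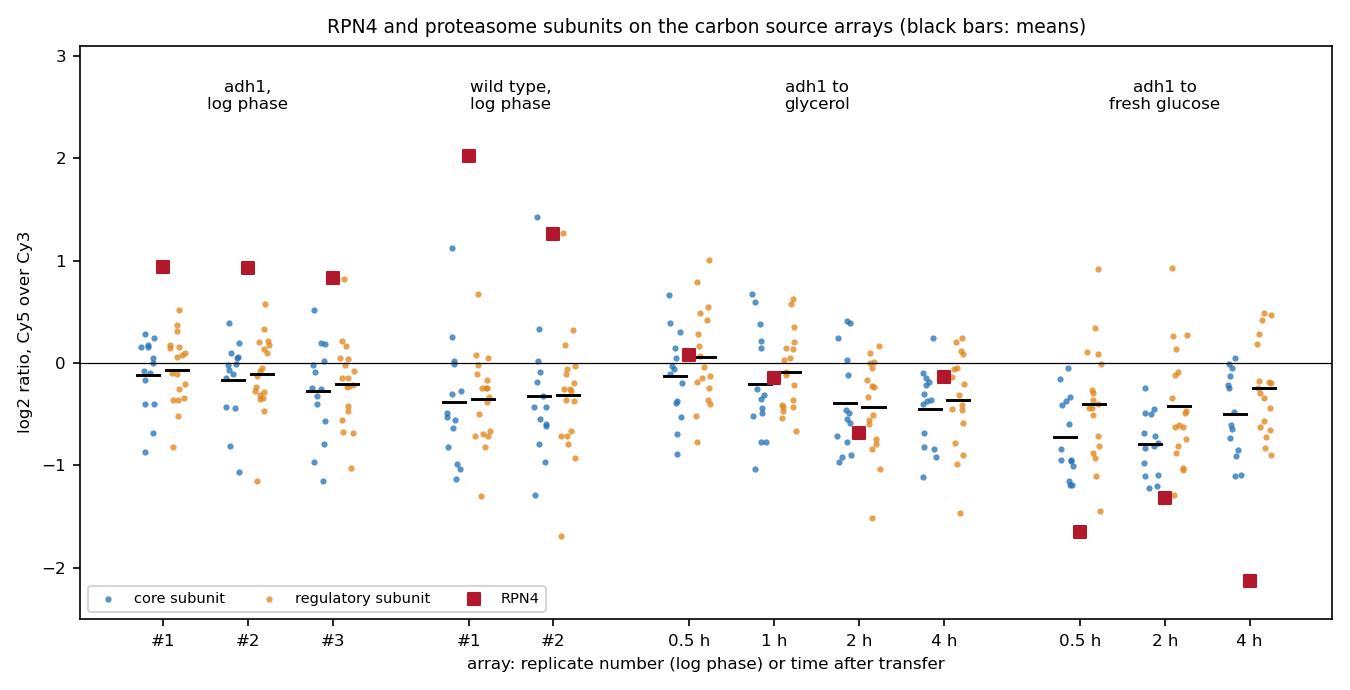
Log2 ratios (y axis) of RPN4 (red squares), the core subunits (blue points) and the regulatory subunits (orange points) on the 5 log-phase arrays (glycerol over glucose) and the 7 transfer arrays (over the overnight culture). Black bars are means over the subunits of a particle. RPN4 lies above 0 on the log-phase arrays of both strains and below both subunit means on the 3 arrays after the move to fresh glucose.

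The difference between strains, tested in the same fit, passed the threshold for 7 subunits. It was positive, that is higher in adh1 cells, for 6 (PRE10, PRE1, PRE6, PUP2, RPN8 and RPN1), against 13.8% of all ORFs, and negative for PRE8, against 11.8%. PRE10 (YOR362C), an alpha ring subunit, lay at 0.15, 0.06 and -0.25 in adh1 cells against -0.63 and -0.62 in wild-type cells, a difference of 0.61 (SE 0.15, adjusted p = 0.0273). PRE8 differed by -0.89 (SE 0.15, adjusted p = 0.0076), and its values in the strains did not overlap. Only the PRE8 call held when each array was left out in turn. Without adh1 replicate 1 or 2 none of the 32 subunits was called higher, without wild-type replicate 2 it was 3, and the call of PRE10 was lost in each of these cases and without wild-type replicate 1 (adjusted p of 0.0652 to 0.0891).

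Of the genes around the proteasome, TMA17, an assembly chaperone of the regulatory particle, rose most on glycerol among the assembly genes. It averaged 1.02 ± 0.22 in adh1 cells (SD, n = 3, adjusted p = 0.00026) and 1.27 ± 0.21 in wild-type cells (SD, n = 2, adjusted p = 0.000266), and NAS2, a chaperone of the base, averaged 0.60 and 0.93. The counts that follow stand beside 29.1% of all ORFs higher and 34% lower in adh1 cells, and 27.7% higher and 33% lower in wild-type cells. Of the 11 assembly genes with values on all 5 arrays, 4 were higher and 1 lower in adh1 cells (PBA1, a core assembly chaperone, at -0.37), and 2 were higher and 1 lower in wild-type cells (UBP6, a deubiquitinating enzyme, at -0.37). Of 18 ubiquitin genes, 4 were higher and 4 lower in adh1 cells, with RAD6 at -0.72 and CUZ1 at -0.67 lowest and SHP1 at 0.61 and DDI1 at 0.32 highest. In wild-type cells 2 were higher (UBC5 at 1.04 and DDI1 at 0.50) and 4 lower, with CUZ1 at -0.79 and UFD2 at -0.73 lowest. Of the 4 known regulators of RPN4, PDR1 and YAP1 rose on glycerol in both strains (0.48 and 0.51 in adh1, 0.62 and 0.62 in wild-type cells), while PDR3 fell (-0.76 in adh1 and -0.37 in wild-type cells). HSF1 was called higher in adh1 cells (0.25, adjusted p = 0.0352) and not in wild-type cells (0.21, adjusted p = 0.119).

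After the move of adh1 cells to fresh glucose, RPN4 and most subunits lay below the overnight culture. RPN4 had values of -1.65, -1.32 and -2.13 at 0.5, 2 and 4 h. The core mean was -0.72, -0.79 and -0.50, and the regulatory mean -0.40, -0.42 and -0.24 at the same times. At 2 h 7 of 32 subunits were 2-fold or more lower, against 5.21% of all ORFs, and 4 of 32 were above 0, against 50.6%. PRE2 lay at -1.19, -0.97 and -0.65, whereas the ubiquitin receptor RPN10 lay at 0.92, 0.27 and -0.34.

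After the move to glycerol the values were closer to 0 at first. RPN4 lay at 0.08, -0.15, -0.69 and -0.13 at 0.5, 1, 2 and 4 h. The core mean was -0.12, -0.21, -0.39 and -0.44 and the regulatory mean 0.06, -0.09, -0.43 and -0.36, so either particle mean lay lower at 2 and 4 h than at 0.5 h. The beta ring had the lowest mean of the 4 subcomplexes at each time, from -0.26 at 0.5 h to -0.69 at 4 h, and PRE2 lay at -0.37, -0.78, -0.97 and -1.12. Over the overnight culture, RPN4 on glycerol did not exceed 0.08 in these 4 h. Both transfer series share that reference, and at 0.5, 2 and 4 h RPN4 lay higher after glycerol than after fresh glucose. Its values were 0.08, -0.69 and -0.13 against -1.65, -1.32 and -2.13, with 1 array each. The log-phase arrays have glucose log-phase cells as reference and the transfer arrays an overnight culture, so the sets of values differ in their denominator.

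In the chemostats RPN4 was higher soon after the onset of stress. On the first array after the onset (0.23 to 0.33 h) it lay above its steady state in 7 of 7 stress courses. Under histidine limitation its values were 0.64 with DTT, 1.50 with heat shock and 0.34 with NaCl. Under glucose limitation they were 0.25 with DTT, 0.63 with heat shock, 0.74 with NaCl and 1.16 with H2O2. The mean was 0.75 ± 0.44 (SD, n = 7, SE 0.16, adjusted p = 0.0236).

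The subunits were higher too on these arrays. Their mean lay at 0.70, 0.37 and 0.60 with DTT, heat shock and NaCl under histidine limitation, and at 0.18, 0.23, 0.16 and 0.46 with DTT, heat shock, NaCl and H2O2 under glucose limitation, which gave 0.39 ± 0.21 over courses (SD, n = 7). Of the 32 subunits 12 were called higher, 7 of the core and 5 of the regulatory particle, against 6.47% of all ORFs, and none was called lower, against 8.37%. The 12 were PRE1, PRE3, PRE4, PRE5, PRE6, PRE7 and PRE10 of the core and RPN2, RPN6, RPN11, RPT3 and RPT6 of the regulatory particle. The median over the subunits was 0.39, beside 0.01 over all ORFs. These calls lay near the threshold: without the heat shock course of either limitation, or without histidine-limited DTT or NaCl, limma called none of the 32 subunits and none of the 6132 ORFs (1590 to 1720 had an unadjusted p under 0.05), while the subunit mean then stayed between 0.33 and 0.42 over the 7 courses left out in turn. The RPN4 call was lost in the same 4 cases, with values of 0.63 to 0.82 and adjusted p of 0.0609 to 0.0747.

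RPN6 (YDL097C), a lid subunit that braces the particle, had the highest mean among the subunits. Its values were 1.08, 0.70 and 1.23 with DTT, heat shock and NaCl under histidine limitation and 0.32, 0.32, 0.59 and 0.67 with DTT, heat shock, NaCl and H2O2 under glucose limitation (mean 0.70 ± 0.35, SD, n = 7, adjusted p = 0.0235). RPT3 (YDR394W), an ATPase of the base, averaged 0.60 ± 0.33 (SD, n = 7), and PRE3 (YJL001W), the caspase-like catalytic subunit, 0.57 ± 0.30 (SD, n = 7). RPN9 (YDR427W), also of the lid, was the only subunit with a mean below 0. It lay at -0.14, -0.33 and -0.00 under histidine limitation and at 0.14, -0.22, -0.79 and -0.07 under glucose limitation, in the same order of stresses, and was not called. Glucose-limited NaCl had the widest spread, with subunits from -0.88 (RPN12) to 1.23 (RPN7).

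**Figure D2:**
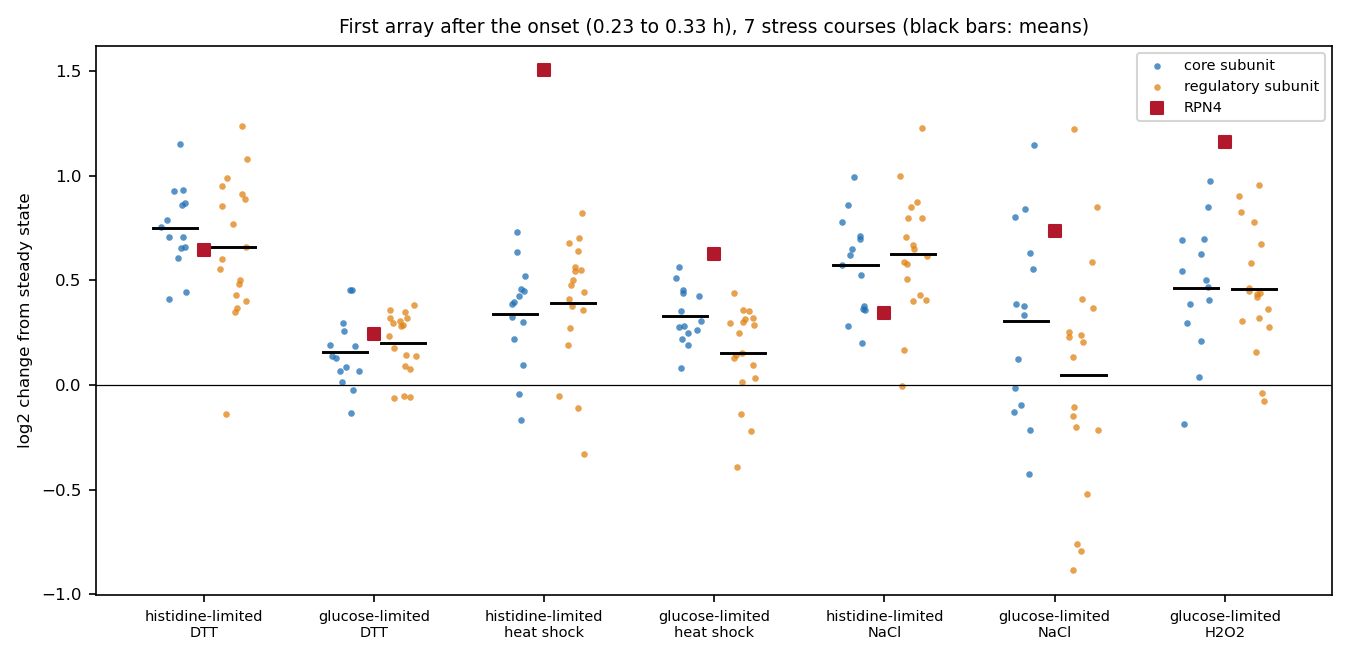
Log2 change from the steady state (y axis) of RPN4 (red squares), the 14 core subunits (blue points) and the 18 regulatory subunits (orange points) on the first array of each of the 7 stress courses, 0.23 to 0.33 h after the onset. Black bars are particle means. RPN4 lies above 0 in all 7 courses, and the subunit means lie highest with DTT and NaCl under histidine limitation.

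Core and regulatory particle lay close together on the first array. The core mean was 0.42 ± 0.20 and the regulatory mean 0.36 ± 0.24 (SD, n = 7 each), and their difference was 0.05 ± 0.12, above 0 in 4 of 7 courses. The means of the alpha ring, the beta ring, the base and the lid were 0.39, 0.44, 0.37 and 0.36. The spread between courses was larger than any difference between these subcomplexes.

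The genes that serve the proteasome behaved unevenly on the first array. Of 14 assembly genes 2 were called higher, TMA17 at 1.32 ± 1.13 and UMP1, the maturation factor of the core, at 0.64 ± 0.39 (SD, n = 7 each). Of 21 ubiquitin genes 7 were called higher, beside 6.47% of all ORFs, and 1 lower, beside 8.37%. The higher ones included DOA4, which recovers ubiquitin at the proteasome, and CUZ1, a partner of CDC48 and the proteasome, both at 0.85, and the lower one was UFD2, which extends ubiquitin chains, at -0.56 ± 0.44 (SD, n = 7). CDC48, the ATPase that extracts ubiquitinated proteins, and its cofactor UFD1 were called higher as well, at 0.50 and 0.57. Of the 4 regulators of RPN4 none was called, and 2, YAP1 at 0.70 and HSF1 at 0.31, had an unadjusted p under 0.05.

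On the second array (0.75 to 2.22 h) the courses had parted. RPN4 lay at 1.85, 0.70 and -0.66 with DTT, heat shock and NaCl under histidine limitation, and at 0.28, 0.48, 0.65 and 2.19 with DTT, heat shock, NaCl and H2O2 under glucose limitation, a mean of 0.78 ± 0.96 (SD, n = 7, adjusted p = 0.176). The subunit mean was 0.45 ± 0.49 (SD, n = 7) and was above 0 in 6 of 7 courses. With limma 0 of the 32 subunits and 0% of all ORFs were called. At an unadjusted p under 0.05, 21 of the 32 subunits were higher, beside 11.6% of all ORFs, and 0 were lower, beside 11.3%.

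The step from the first to the second array needs no baseline and differed in sign between courses. The step of RPN4 was 1.20, -0.81 and -1.0 with DTT, heat shock and NaCl under histidine limitation and 0.03, -0.15, -0.09 and 1.03 with DTT, heat shock, NaCl and H2O2 under glucose limitation. The subunit mean stepped by 0.41, -0.24 and -0.79 with DTT, heat shock and NaCl under histidine limitation and by 0.36, -0.19, 0.39 and 0.52 with DTT, heat shock, NaCl and H2O2 under glucose limitation. DTT and H2O2 thus had positive steps of the subunit mean, heat shock negative ones, and NaCl one of each sign. Limma called 0 of the 32 subunits and 0% of all ORFs for this step. At an unadjusted p under 0.05 there were 0 subunits on either side, beside 6.18% of all ORFs higher and 5.46% lower. The times of the arrays differ between courses, so the steps span different intervals.

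DTT, which reduces disulfide bonds and disturbs folding in the secretory pathway, gave the highest subunit mean of all 71 arrays under histidine limitation. RPN4 lay at 0.64, 1.85, 1.37, 1.30, 0.85, -0.78 and -1.13 at 0.25, 1, 3.1, 6.55, 10.72, 19.32 and 28.62 h. The subunit mean was 0.70, 1.11, 0.73, 0.67, 0.41, -0.04 and -0.04 at the same times, so the subunits were back at the baseline by 19.32 h while RPN4 lay below it. At 1 h 24 of 32 subunits were 2-fold or more higher, against 10.7% of all ORFs, and all 32 were above 0, against 52.2%. PRE6 (YOL038W), an alpha ring subunit, was highest at 1 h, and lay at 0.79, 1.81, 1.60, 0.98, 0.97, 0.59 and 0.14 over the course, while PRE8 was lowest at 1 h, at 0.02. The values rest on the borrowed baseline described above.

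Under glucose limitation the same dose of DTT gave lower maxima of RPN4 and of the subunit mean. The array times differ between the courses, with none between 0.33 and 2.22 h under glucose limitation. The histidine-limited values also rest on the borrowed baseline and, by the methods, on another strain. RPN4 lay at 0.25, 0.28, 0.79, 0.32, -0.53, -0.58 and -0.52 at 0.33, 2.22, 4.95, 8.63, 14.25, 21.48 and 26.7 h, and the subunit mean at 0.18, 0.54, 0.15, -0.15, -0.15, -0.02 and 0.02. At 2.22 h no subunit reached a 2-fold change, beside 6% of all ORFs, yet all 32 were above 0, beside 49.9%. The regulatory mean exceeded the core mean there (core 0.44, regulatory 0.61). The RPN4 maximum thus came on a later array than that of the subunits.

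H2O2, an oxidant given only to glucose-limited cells, brought the largest RPN4 change from a steady state. RPN4 lay at 1.16, 2.19, 0.30, -0.08, 0.57, 0.01 and 0.49 at 0.25, 1.2, 2.83, 7.73, 13.5, 19.67 and 28.32 h. The subunit mean was 0.46, 0.98, 0.36, 0.18, 0.07, -0.03 and 0.04. At 1.2 h 13 of 32 subunits were 2-fold or more higher, against 9.57% of all ORFs, and all 32 were above 0, against 50.5%. YAP1, known to act on the RPN4 promoter, lay at 2.24 on this array. In glucose-limited NaCl it lay at 1.79, 1.67 and 2.21 at 0.25, 0.75 and 1.75 h, where RPN4 lay at 0.74, 0.65 and 0.12. The part of YAP1 in these RPN4 values was not tested.

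Single subunits departed from the mean in the H2O2 course. PRE3 lay at 0.98, 2.10, 1.98, 1.58, 0.30, -1.15 and -0.06, so that it was still far above its steady state at 7.73 h, when the mean over the subunits was 0.18. RPN5, a lid subunit, lay at 0.90, 1.46, -0.08, -0.22, -0.67, -1.30 and -0.52. RPN10 stayed between -0.24 and 0.40. These are single arrays, and 2 repeat steady-state arrays could differ by 0.56 in a single subunit.

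In heat shock RPN4 was highest on the first array in both limitations. Under histidine limitation RPN4 lay at 1.50, 0.70, 0.46 and 0.56 at 0.25, 0.75, 2.47 and 4.88 h, that is at 37 °C, and at -0.22, -0.24, 0.09 and 0.21 at 5.38, 9.2, 15.77 and 23.62 h, after the return. The subunit mean was 0.37, 0.13, -0.05 and 0.04 during the shock. On the array at 5.38 h none of the 32 subunits was above 0, beside 51.6% of all ORFs, with a mean of -0.43 and a range from -0.71 (PUP3) to -0.04 (SCL1). By 9.2 h the mean was 0.02.

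Under glucose limitation RPN4 lay at 0.63, 0.48 and 0.19 at 0.25, 1.58 and 3.62 h, that is at 39 °C, and at 0.40, -0.10, -0.32 and -1.21 at 5.25, 6.33, 9.63 and 16.05 h, after the 5 h of heat. The subunit mean was 0.23, 0.04 and -0.15 during the shock and -0.28, -0.27, -0.14 and -0.03 after it. The core mean exceeded the regulatory mean on all 7 arrays, by 0.06 to 0.22. The lid had the lowest mean of the 4 subcomplexes on each of them. All these values subtract 1 steady-state array, on which the core exceeded the regulatory mean by 0.03 over batch culture. In the other glucose-limited steady states that excess was 0.10 to 0.25, so the differences here depend on this array. RPN12 lay at 0.35 on it, against -0.38 to 0.26 in the others. RPN12 lay at 0.31, -0.09, -0.82, -0.88, -1.05, -0.87 and -0.86 and RPN1, a scaffold of the base, at -0.39, -0.72, -0.82, -0.54, -1.03, -0.81 and -0.35, whereas RPN13 stayed above 0 on each array, between 0.30 and 0.81.

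NaCl gave a brief excursion in both limitations. Under histidine limitation the subunit mean was 0.60 at 0.23 h and -0.18, -0.05, 0.02, 0.05 and 0.07 at 1.82, 2.9, 5.28, 7.37 and 17.15 h, and RPN4 lay at 0.34, -0.66, -0.71, -0.21, -0.18 and -0.10. Under glucose limitation the subunit mean was 0.16, 0.55 and -0.26 at 0.25, 0.75 and 1.75 h and between -0.04 and 0.12 afterwards, and RPN4 lay at 0.74, 0.65 and 0.12 and then between -0.07 and 0.11. At 0.75 h all 32 subunits were above 0, beside 49.3% of all ORFs, and 2 were 2-fold or more higher, beside 4.75%, PRE9 at 1.13 and RPN7 at 1.16. The doses differ between the limitations, and the glucose-limited course has an array at 0.75 h that the other lacks.

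**Figure D3:**
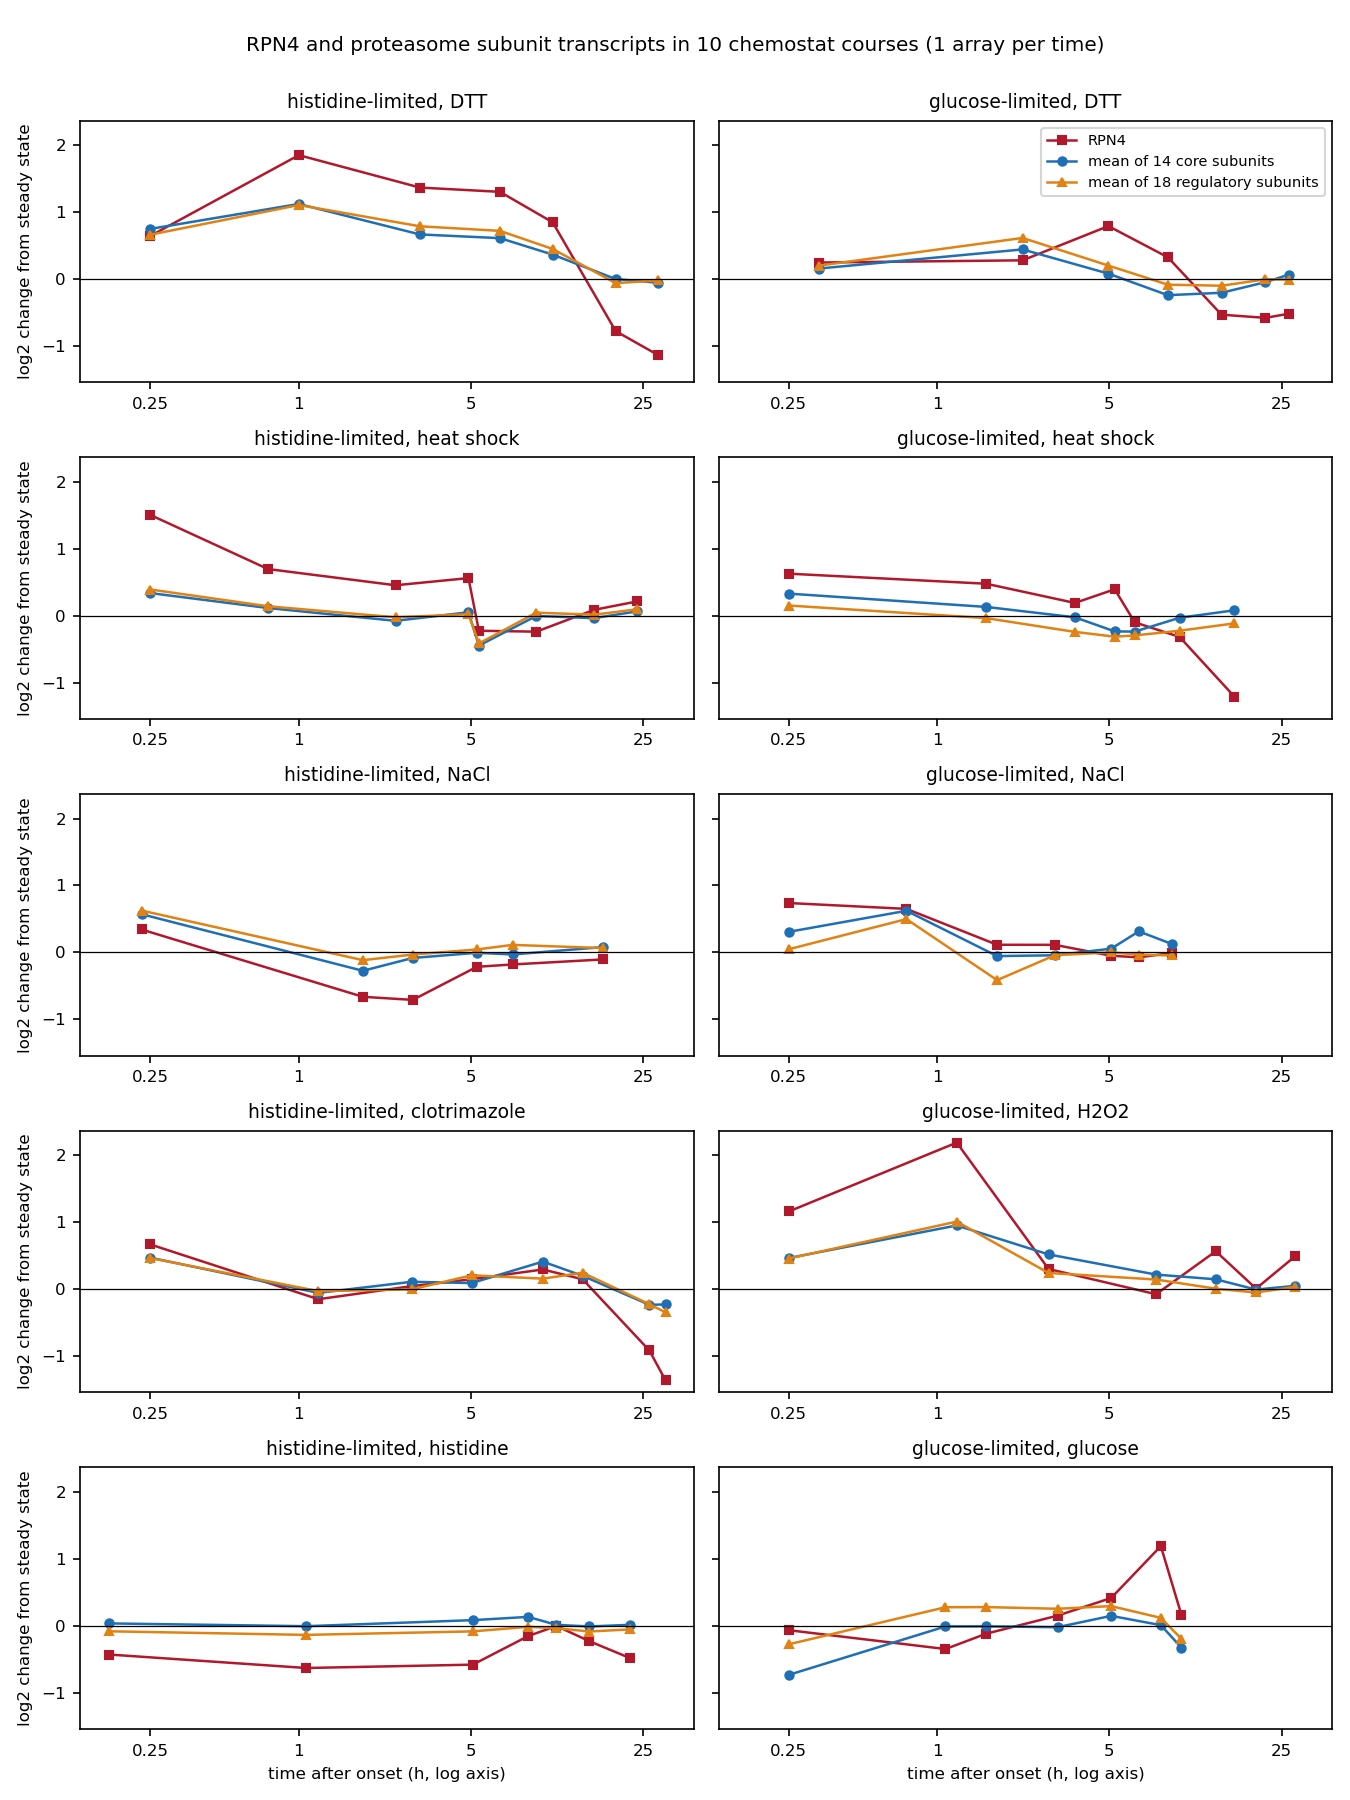
Log2 change from the steady state (y axis) against time after the onset (x axis, log scale, in h) for RPN4 (red), the mean of the 14 core subunits (blue) and the mean of the 18 regulatory subunits (orange), with histidine-limited courses on the left and glucose-limited courses on the right. The particle means stay close on most arrays, and the highest RPN4 values are 1.85 in histidine-limited DTT and 2.19 in H2O2.

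Clotrimazole, an inhibitor of ergosterol synthesis, gave an early and a late deviation of opposite sign. At 0.25 h RPN4 lay at 0.67 and all 32 subunits were above 0, beside 50.3% of all ORFs, with a mean of 0.47 and a narrow spread over subunits (SD 0.14). None reached a 2-fold change, beside 0.538% of all ORFs that were 2-fold or more higher. At 1.2 h the mean was -0.04, and at 2.87 to 14.18 h it lay between 0.05 and 0.27. At 26.45 and 30.8 h RPN4 lay at -0.91 and -1.36 and the subunit mean at -0.23 and -0.29.

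The addition of the limiting nutrient was followed by different values in the 2 limitations. After histidine the subunit mean stayed between -0.08 and 0.05 on all 7 arrays, while RPN4 lay at -0.43, -0.63 and -0.58 at 0.17, 1.07 and 5.08 h and between -0.48 and 0.00 later. These RPN4 values subtract 1 steady-state array at 0.48, against -0.06, 0.08 and 0.67 in the other histidine-limited courses. Over batch culture RPN4 lay at 0.05, -0.15 and -0.10 at 0.17, 1.07 and 5.08 h. The -0.48 belongs to the array at 22.12 h, where RPN4 was listed at exactly 0. PRE6 lay at 0.58, 0.55, 0.57 and 0.43 on the first 4 arrays, the highest subunit on each of them. After glucose the subunit mean was -0.47 at 0.25 h, with 7 of 32 subunits above 0, beside 49.9% of all ORFs, and 4 of 32 2-fold or more lower, beside 9.85%. It was between 0.07 and 0.23 from 1.08 to 8.08 h. The core was lower than the regulatory particle on that first array (core -0.73, regulatory -0.27) and on each of the other 6, by 0.11 to 0.29. All 7 differences subtract the same steady-state array, on which the core exceeded the regulatory particle by 0.23 over batch culture. In the other glucose-limited courses that excess was 0.03 to 0.25, so the size and sign of the smaller differences depend on this 1 array.

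RPN4 did not share the low first value after glucose. It lay at -0.06, -0.34, -0.12, 0.15, 0.42, 1.19 and 0.16 at 0.25, 1.08, 1.58, 3.08, 5.08, 8.08 and 9.8 h. RPN3 and RPN7, both of the lid, lay apart throughout this course. RPN3 was at 0.36, 1.12, 1.03, 1.01, 0.88, 0.61 and 0.07, while RPN7 was at -1.32, -0.86, -0.96, -0.76, -0.46, -0.56 and -0.66. On the single steady-state array subtracted here, RPN3 lay at -0.33 and RPN7 at 0.48 over batch culture. In the other glucose-limited steady states RPN3 lay between -0.10 and 0.21 and RPN7 between -0.34 and 0.00. Part of the distance between them thus comes from that array. PRE3 was the lowest subunit at 0.25 h, at -1.48.

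**Figure D4:**
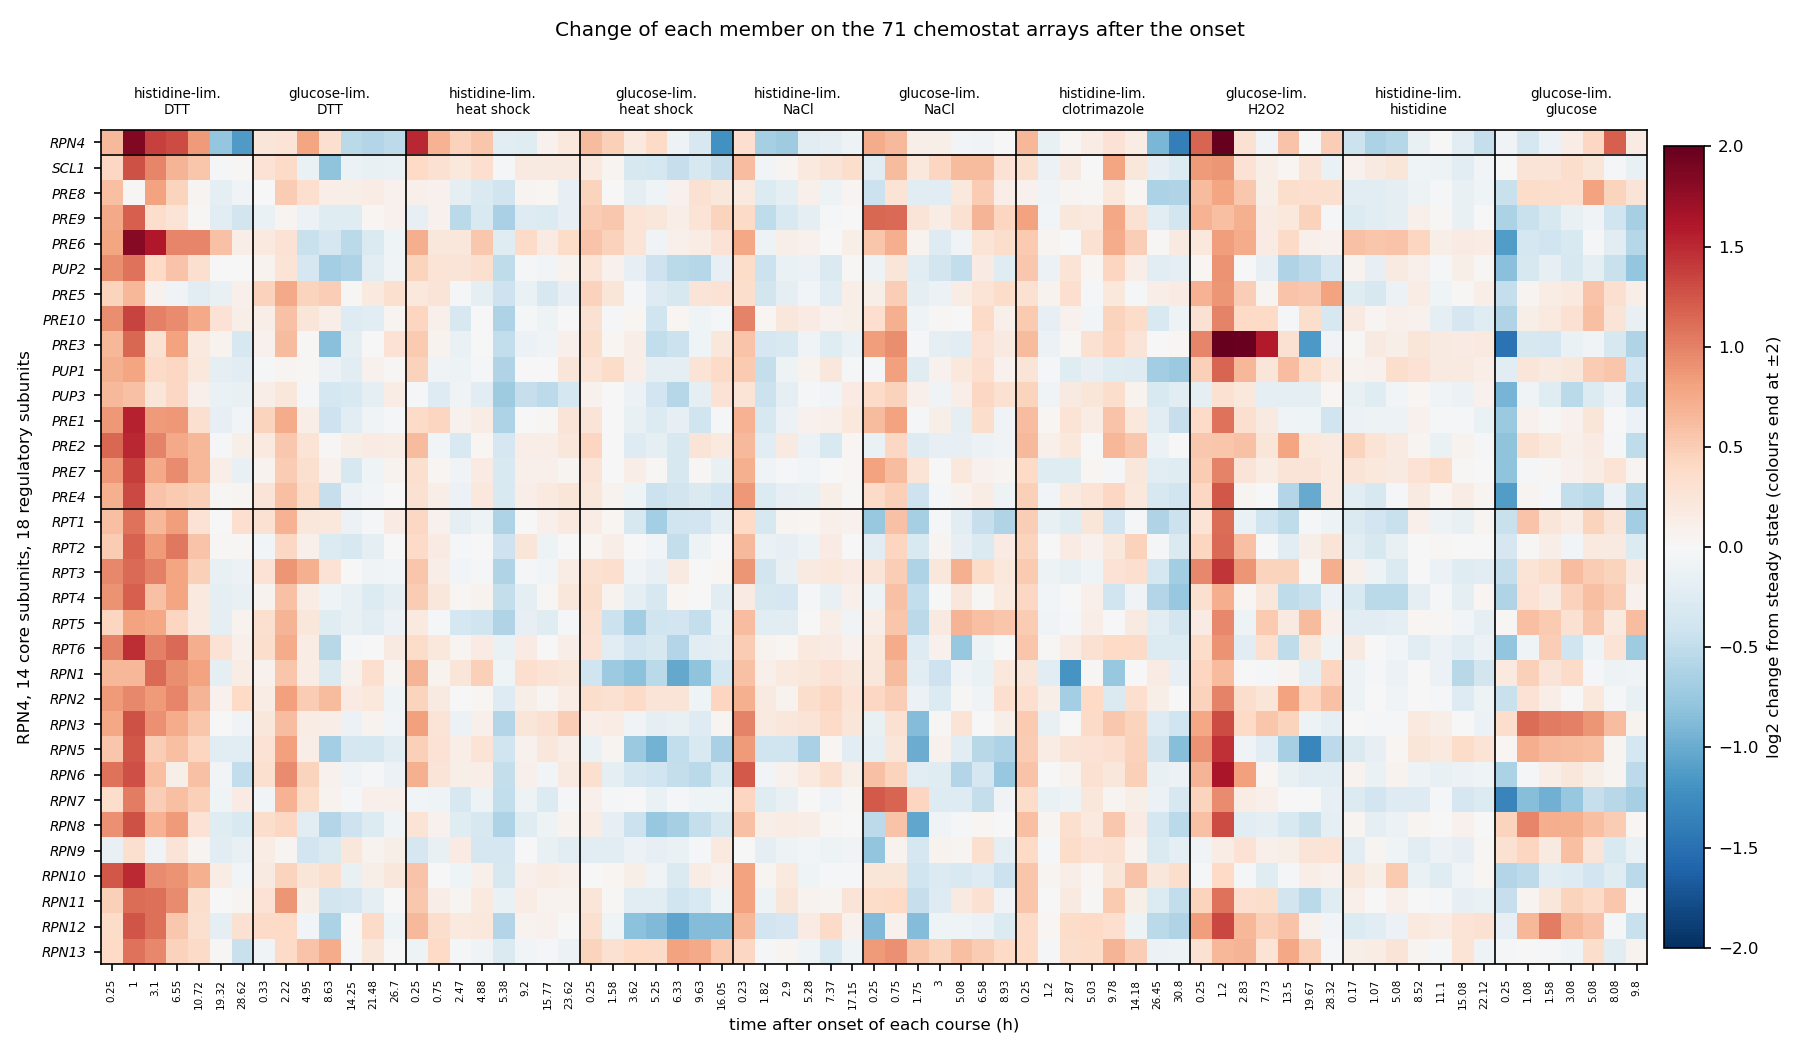
Log2 change from the steady state (color, from -2 in dark blue to 2 in dark red, with values beyond shown at the end colors) of each of the 33 genes (rows) on the 71 chemostat arrays after the onset (columns, by course and time in h). The column of histidine-limited DTT at 1 h and that of H2O2 at 1.2 h are red in nearly all rows, with PRE3 reaching 2.10 and RPN4 2.19 in H2O2.

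Over all 71 arrays after the onset, 60 of 2272 subunit values were 2-fold or more higher, beside 2.72% of the values of all ORFs, and 11 were 2-fold or more lower, beside 2.74%. Of the 60 higher values, 37 fell on the 2 arrays of histidine-limited DTT at 1 h and H2O2 at 1.2 h. RPN4 was 2-fold or more higher on 7 arrays and 2-fold or more lower on 3. It was above 0 or below 0 together with the subunit mean on 49 of 71 arrays. The RPN4 maximum exceeded the maximum of the subunit mean in 8 of 10 courses, and both maxima fell on the same array in 6. The SD of RPN4 over the 71 arrays was 0.67, whereas that of the subunits ranged from 0.24 (RPN9) to 0.58 (PRE3), with a median of 0.39 beside 0.40 over all ORFs.

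The subunits varied together across these arrays. As a description over 71 arrays, which share the steady-state arrays within a course and the batch reference within a limitation, the Pearson correlation of a subunit with the mean of the other 31 ranged from 0.25 (RPN9) to 0.93 (PRE1), with a median of 0.73. It exceeded 0.5 for 30 of 32 subunits, and for 7.02% of the 6099 ORFs outside the group with the mean over all subunits. The exceptions were RPN9 and RPN13, at 0.25 and 0.43. The core mean and the regulatory mean correlated at 0.88, and RPN4 with the subunit mean at 0.71.

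The ORFs outside the group with the pattern most like that of the subunits, by Pearson correlation over the same 71 arrays, were UFD1 (0.87), SNX4 (0.83), FPT1 and NUR1 (both 0.80), SIS1, OTU1 and CDC53 (all 0.79), ATG3, CUZ1 and CUR1 (0.78, 0.78 and 0.77). UFD1, OTU1 and CUZ1 are factors of the ubiquitin and CDC48 system, CDC53 is the cullin of a ubiquitin ligase and SIS1 is a chaperone. Among the assembly genes UMP1 stood highest, at 0.75, and BLM10 lowest, at -0.20. The lowest of the ubiquitin genes were UFD2 (-0.57), UBR1 (-0.51) and UBR2 (-0.47). The ORFs outside the group most like RPN4 were NTH1 (0.77), BTN2 (0.77), HRT1 (0.75), SNA4 (0.75) and SSE2 (0.75). NTH1 is a trehalase, BTN2 sorts misfolded proteins, HRT1 is a ubiquitin ligase subunit and SSE2 a chaperone of the heat shock response.

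The steady states themselves, before any perturbation, differed between the limitations. Under histidine limitation RPN4 lay at 0.67, -0.06, 0.48 and 0.08 over the batch culture in the clotrimazole, heat shock, histidine and NaCl courses (mean 0.29 ± 0.34, SD, n = 4, adjusted p = 0.0741). Under glucose limitation it lay at -0.26, -0.65, -0.74, -0.46 and -0.48 in the DTT, glucose, H2O2, heat shock and NaCl courses (mean -0.52 ± 0.18, SD, n = 5, adjusted p = 0.00375), so the limitations did not overlap. The difference, histidine minus glucose, was 0.81 (SE 0.16, adjusted p = 0.00249). This comparison of limitations was added after the values had been seen, and it rests on different batch references and, by the methods, on different strains. Within a limitation the courses share the batch reference. The p-values against batch culture, and those of the difference, thus do not measure how much the batch cultures vary. The call on histidine-limited RPN4 depended on the arrays, as without the heat shock course its mean was 0.41 with an adjusted p of 0.0268.

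The subunits were higher than in batch culture under histidine limitation. Their mean lay at 0.37, 0.24, 0.38 and 0.32 in the same 4 courses (0.33 ± 0.06, SD, n = 4), and 20 of 32 were called higher, 9 of the core and 11 of the regulatory particle, against 18.2% of all ORFs. None was called lower, against 16.5% of all ORFs. RPT3 was highest, at 0.76, 0.40, 0.77 and 0.53 (mean 0.61 ± 0.18, SD, n = 4, adjusted p = 0.000215). RPN13 was lowest, at 0.02, -0.04, -0.05 and -0.01, and was not called. Without the heat shock course, whose source names give glucose limitation, 20 subunits were again called higher and none lower, with a mean of 0.35.

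Under glucose limitation the subunits stayed close to the batch culture. Their mean lay at 0.08, -0.03, 0.04, 0.08 and 0.08 in the 5 courses (0.05 ± 0.05, SD, n = 5). Of the 32, 6 were called higher (PRE1, PRE3, PRE6, PUP2 and PUP3 of the core and RPN9 of the lid), against 13.9% of all ORFs, and none lower, against 14.8%. PRE6 was at 0.41, 0.29, 0.56, -0.02 and 0.32 (mean 0.31 ± 0.21, SD, n = 5, adjusted p = 0.0144), and the lowest, RPT4, at -0.04, -0.37, -0.18, -0.14 and -0.14, was not called. Without the DTT, the H2O2 or the heat shock course the count of higher subunits was 1, 2 or 3, and PRE6 was no longer called without the DTT or the H2O2 course (adjusted p of 0.0565 and 0.0591).

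The 2 particles differed in the glucose-limited steady state. The core mean was 0.13 ± 0.04 and the regulatory mean -0.02 ± 0.08 (SD, n = 5 each), and the core exceeded the regulatory particle in 5 of 5 courses, by 0.15 ± 0.09 (SD, n = 5). Under histidine limitation the core mean was 0.30 ± 0.04 and the regulatory mean 0.34 ± 0.09 (SD, n = 4 each), and the difference was -0.04 ± 0.06. No test was made on these means.

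Set against each other, 14 subunits were higher under histidine than under glucose limitation, 4 of the core and 10 of the regulatory particle, against 18.7% of all ORFs, and none was lower, against 16.3%. RPT3 differed most, by 0.78 (SE 0.12, adjusted p = 0.000466), with values of 0.40 to 0.77 under histidine limitation and -0.35 to -0.03 under glucose limitation. RPT2, another ATPase of the base, differed least among the 14, by 0.31 (SE 0.09, adjusted p = 0.0169, and 0.0519 without the clotrimazole course). Among the 14, the values of RPN6 and RPN7 overlapped between the limitations. None of the 5 core subunits called higher under glucose limitation was among the 14. The mating transcripts differed between the limitations as well, with MFA2 lower by 2.02 and STE3 higher by 1.20 under histidine limitation, and their part in these differences was not tested.

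**Figure D5:**
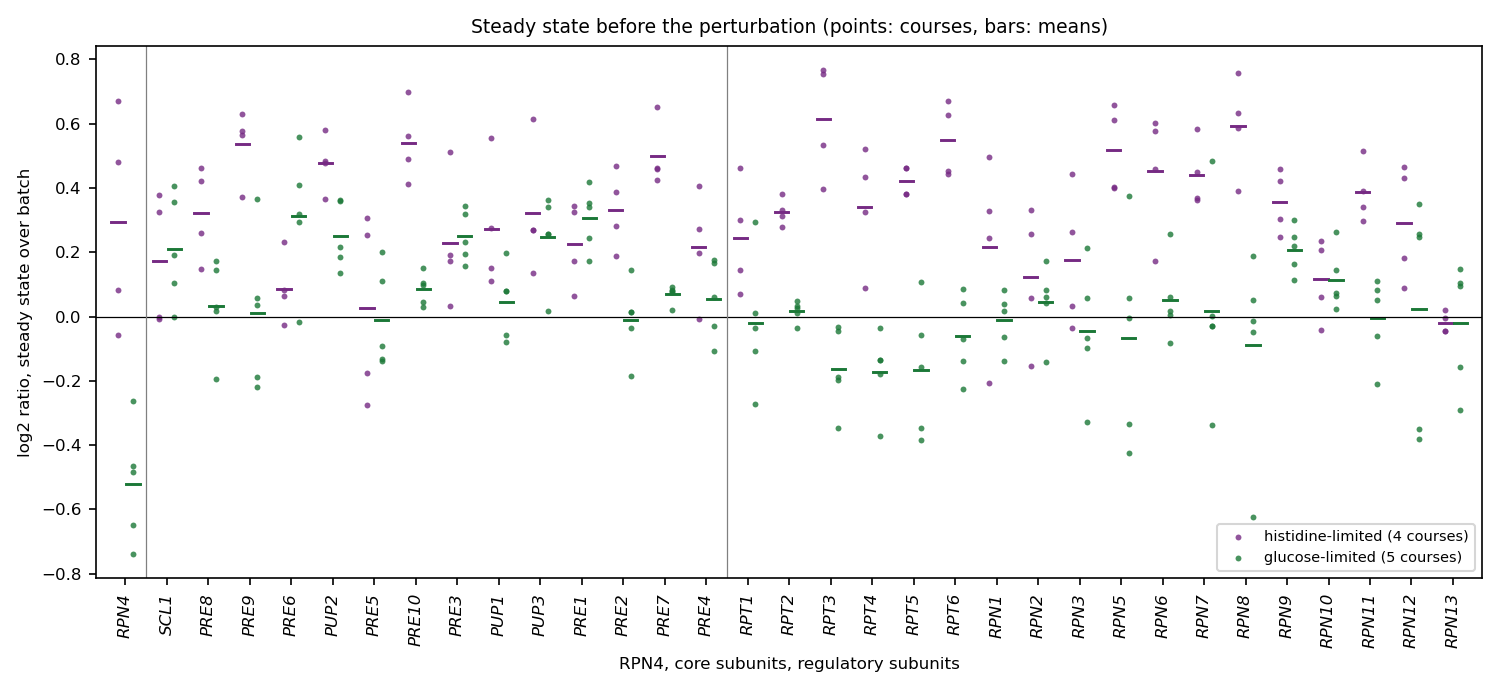
Log2 ratio of the steady-state culture over the batch culture (y axis) for each of the 33 genes (x axis), with 4 histidine-limited courses in purple on the left and 5 glucose-limited courses in green on the right of each position. Points are courses and bars are means, and RPN4 lies between -0.06 and 0.67 under histidine limitation and between -0.74 and -0.26 under glucose limitation.

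Around the proteasome, the steady states did not move as a whole. Of 14 assembly genes 2 were higher (PBA1 at 0.44 and UMP1 at 0.24) and 4 lower under histidine limitation, with ADD66, a core assembly chaperone, at -0.43 and NAS6, a base chaperone, at -0.41 lowest. Of 21 ubiquitin genes 6 were higher, beside 18.2% of all ORFs, and 1 lower, beside 16.5%, with the shuttle factor RAD23 at 0.63 and OTU1 at 0.55 highest and DOA4 at -0.42 the lower one. Under glucose limitation 3 assembly genes were higher, HUL5, a ubiquitin ligase of the proteasome, at 0.50 and IRC25 at 0.29 among them, and none was lower, while of the ubiquitin genes 1 was higher (UFD2 at 0.27) and 2 were lower (UFD4 at -0.38 and SHP1 at -0.37), beside 13.9% of all ORFs higher and 14.8% lower. Of the 4 regulators 1 was higher in each limitation, PDR3 at 0.26 under histidine and PDR1 at 0.33 under glucose limitation.

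For the 3 stresses given under both limitations, the first-array change was compared between them with the stress as a pair. The subunit mean was higher under histidine limitation by 0.52 with DTT, by 0.14 with heat shock and by 0.44 with NaCl, a mean of 0.37 ± 0.20 (SD, n = 3). The difference in RPN4 was 0.40 with DTT, 0.88 with heat shock and -0.40 with NaCl, a mean of 0.29 ± 0.64 (SD, n = 3, adjusted p = 0.78). Limma called 0 of the 32 subunits and 0% of all ORFs, and at an unadjusted p under 0.05 there were 6 subunits higher, beside 5.41% of all ORFs, and 0 lower, beside 3.16%. RPN3 had the highest difference, 0.54, 0.69 and 1.15 with DTT, heat shock and NaCl, and PRE9 the lowest, 0.89, -0.68 and -0.77. The comparison has 3 pairs, and the doses of NaCl and the temperatures differ between the limitations.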

How the data were processed

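Total RNA of each pair of cultures was labeled and hybridized to PCR-product arrays of yeast ORFs, with 1 scanner and quantification program per experiment. The deposited log2 ratios of Cy5 over Cy3 were, per the study's methods, corrected for technical biases and normalized by the authors, by procedures not given in the sources used here. No dye swaps are labelled. They were used as deposited. ORFs were named through the RefSeq table (assembly R64), which gave 5665 of 6132 a symbol. The samples were grouped by their labels.

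For each chemostat course the mean of its steady-state arrays was subtracted, and the courses, not the arrays, were the replicates. Means were tested with limma 3.58.1 (R 4.3.3) over all ORFs, with Benjamini-Hochberg adjustment and a threshold of 0.05. This used 4827 ORFs with values on all 5 log-phase arrays (5071 to 5672 values per array) and 6132 ORFs in the chemostats. All 9 steady states were fitted together with 1 spread, as were both strains in log phase. Transfer times had 1 array each and were not tested. The number of arrays limits the precision, as no depth exists for arrays. The limma procedure was tested on simulated data. Figures were drawn with matplotlib 3.10.9 under Python 3.11.15.

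All 33 members could be named. In each comparison values were given for RPN4, the particle means and the subunits with the highest and lowest values, and for the other genes of the pathway by fixed lists of 14 assembly genes, 21 ubiquitin genes, 4 regulators of RPN4 and 8 mating genes. The members and lists were chosen with earlier results of these data known. Alternatives were centring of the arrays, other baselines, zeros as missing, robust moderation, the replicate number as a block and leaving out each course or array.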

Additional observations from a re-analysis of the deposited data

Results flagged for a closer look

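In the histidine-limited steady state the core mean minus the regulatory mean was 0.051 in the heat shock course and between -0.07 and -0.06 in the other 3 courses, so the heat shock course stood apart from the rest. Chance sets apart about 1 in 20 such groups, and 35 groups were looked at.

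The response to glycerol differed between adh1 and wild-type cells for 6 of 32 subunits with a higher value in adh1 cells, beside 13.8% of all ORFs, and for 1 with a lower value, beside 11.8%. RPN4 differed by -0.74, PRE10 by 0.61 and PRE8 by -0.89. Without adh1 replicate 1 or 2 the higher count was 0, and the RPN4 call held only without wild-type replicate 2 among the 5 arrays left out in turn. The adh1 arrays also carry the difference in alpha-specific mating transcripts given above, and its part was not tested.

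The steady state over batch culture differed between histidine and glucose limitation for 14 of 32 subunits, all higher under histidine limitation, beside 18.7% of all ORFs higher and 16.3% lower. RPN4 differed by 0.81, RPT3 by 0.78 and RPT2 by 0.31. Limitation and strain cannot be told apart.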

How the results depend on the processing

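Of 850 recomputed values 778 kept their direction and their side of the threshold, or stayed within the spread or within 1.5 times the count. In log phase, leaving out 1 array at a time gave 1 to 2 subunits called higher in adh1 cells and 12 to 19 called lower in wild-type cells, and for the difference between strains 0 to 4 called higher and RPN4 at -1.12 to -0.36. Where 1 wild-type array was left, it was assumed to vary like the adh1 arrays. Numbers 1 and 2 are shared by the strains but did not pair the arrays (r = 0.05 and -0.0018 between same-numbered deviations). Without a block the wild-type median over the subunits was -0.39, beside the mean of -0.34. With the replicate block the wild-type subunit mean was -0.38, the strain difference called 2 subunits higher and 796 ORFs in place of 1237, and RPN4 lay at -0.71 (adjusted p = 0.0853). The block changed no other call among the genes tested in this way. Without adh1 replicate 1 the difference called 628 ORFs, and without adh1 replicate 2 it called slightly fewer.

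On the first array, leaving out 1 course at a time gave 0 to 13 subunits called higher and RPN4 at 0.63 to 0.84, and 508 ORFs called without glucose-limited NaCl, against 910 in all courses and 0 in the cases named above. As ratios to batch culture, with no steady state taken off, 5 subunits and 135 ORFs were called and RPN4 lay at 0.52 (adjusted p = 0.104). On the second array 41 ORFs were called over the batch reference and 203 without histidine-limited NaCl, against 0. The step of RPN4 from first to second array changed sign, to -0.075 with clotrimazole added and to -0.14 without H2O2 and -0.16 without histidine-limited DTT, and ranged up to 0.20. The difference between limitations in the subunit mean was 0.59 over the batch reference, with 97 ORFs called.

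In the steady states RPN4 under histidine limitation lay at 0.27 with each array as 1 value (adjusted p = 0.0383) and at 0.17 to 0.41 without 1 course. Under glucose limitation 1 to 6 subunits were called higher without 1 course, and between limitations 0 to 1 were lower, the 1 without glucose-limited heat shock. The cause of these changes was not tested.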
